A study of Mus musculus with 8 samples.

Results

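The 100 genes described here encode Mediator, the subunits of RNA polymerases I, II and III, the TBP-associated factors with TBP itself, and the initiation factors TFIIA, TFIIB, TFIIE, TFIIF and TFIIIC. They were taken from a table of 18257 mouse genes by symbol alone: every Med gene with a number, every Polr1, Polr2 and Polr3 gene, every Taf gene with a number, the genes of those factors, and Ccnc, Cdk8, Cdk19 and Tbp. TFIIH genes were left out, and some Pol I subunits that this annotation lists under other kinds of symbol were not matched, so Pol I is represented by 3 genes. Of the 100 genes, 33 belong to Mediator, 28 to the polymerases, 19 to TFIID, 4 to the TBP-associated factors of SL1, 2 to TAF-like subunits of SAGA, 8 to TFIIA, TFIIB, TFIIE and TFIIF, and 6 to TFIIIC.

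RNA was measured in wild-type mouse embryos given as morulae, 4 libraries of embryos cultured in KSOM with 2 µM A485 and 4 libraries of embryos cultured in KSOM with 0.1% DMSO, called control below. A485 is an inhibitor of the acetyltransferases p300 and CBP, and the series asks what their inhibition does to embryos cultured onward from the 4-cell stage. Each library holds 3 pooled embryos whose zona pellucida had been removed, and its cDNA came from polyadenylated RNA and was preamplified before a transposase made the library. The labels name the tissue as morula, whereas the culture protocol ends at the blastocyst. Strain, sex and litter of the pooled embryos, and whether pools were cultured on separate days, are not known from the labels, so p-values measure the spread between these pools.

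RNA polymerase II makes messenger RNA, RNA polymerase I makes the large ribosomal RNA precursor, and RNA polymerase III makes transfer RNA, 5S ribosomal RNA and other small RNAs. TFIID, built of TBP and its TAFs, recognises Pol II promoters, TFIIA and TFIIB secure it there, TFIIF and TFIIE bring in and open the polymerase complex, and Mediator carries signals from enhancer-bound activators to the polymerase. SL1 is the corresponding TBP complex of the ribosomal RNA genes, and TFIIIC recognises transfer RNA genes and brings in TFIIIB, which holds TBP there. In mammalian embryos this machinery is first supplied by the oocyte and is then made by the embryo, and p300 and CBP are acetyltransferases of enhancers and promoters that contact Mediator and TFIID.

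Total estimated counts per library were 23641781 to 25677701. Levels below are CPM, the counts of a gene per 1e6 counts of its library, after scaling by TMM factors, so they are relative to the RNA of the same embryos, averages are given with the SD over 4 libraries, and fewer cells of a type and less RNA per cell cannot be told apart. A485 libraries differed more among themselves than control libraries did. The chi-square per degree of freedom between libraries was 63.6 to 223.1 for A485 pairs and 19.1 to 33.8 for control pairs. It was 70 between A485 libraries 1 and 2, 63.6 between A485 libraries 3 and 4, and 130 to 223.1 between the other A485 pairs. Whether A485 libraries 1 and 2 and A485 libraries 3 and 4 form separate groups was not tested. The summed level of 8 morula and early lineage markers was 1347 to 5476 CPM in A485 libraries and 10200 to 11590 CPM in control libraries. Much of that sum was Dppa3, at 727.9 to 3951 CPM in A485 libraries and 6980 to 7815 CPM in control libraries. Cumulus and granulosa markers summed to 0.924 to 2.67 CPM in A485 libraries and 0 to 0.0881 CPM in control libraries. Sperm markers summed to 0.256 to 0.739 CPM in A485 libraries and 0.0451 to 0.5725 CPM in control libraries. The 5 blood markers summed to 104.7 to 336.2 CPM in A485 libraries and 7.54 to 17.6 CPM in control libraries, almost all of it from Hba-a1, while Hbb-bs, Hbb-bt and Ptprc stayed at 0.183 CPM or below in every library. The part of these differences in the results was not tested.

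Of the 98 genes that passed the filter on low counts, 40 fell in A485 embryos and 15 rose at an adjusted p under 0.05 (edgeR quasi-likelihood test, Benjamini-Hochberg over 12936 genes), and 43 did not pass the threshold. That is 40.8% lower and 15.3% higher, beside 25.0% of all tested genes lower and 29.7% higher. The median log2 fold change of A485 over control was -0.26 over the 98 genes and 0.09 over all tested genes. Falls of at least 2-fold were called for 13 genes and rises of that size for 5, where 14.3% and 22.2% of all tested genes did so. The A485 libraries lay below all control libraries for 39 genes (24.6% of all tested genes) and above them for 13 (26.9%). Among the 15 rises, Taf7l and Taf9b passed the filter through the A485 libraries alone, so their calls support nothing. Taf7l2 and Gtf2a1l did not pass the filter, with 25 and 6 counts summed over the A485 libraries and 27 and 2 over the control libraries.

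How these shares read depends on the scaling. With total counts in place of TMM factors, the median of all tested genes moved to 0.37 and that of the 98 genes to 0.02. The distance between them was -0.35 under either scaling. Scaling shifts all genes by nearly the same amount and cannot change that distance, so this does not show stability. The split became 25 lower and 18 higher, against backgrounds of 17.8% and 38.1%, and the share of falls among called genes was 58.1% in place of 72.7%. Of the 55 calls, 44 also passed with each library left out in turn, and none changed direction under any setting.

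**Figure D1:**
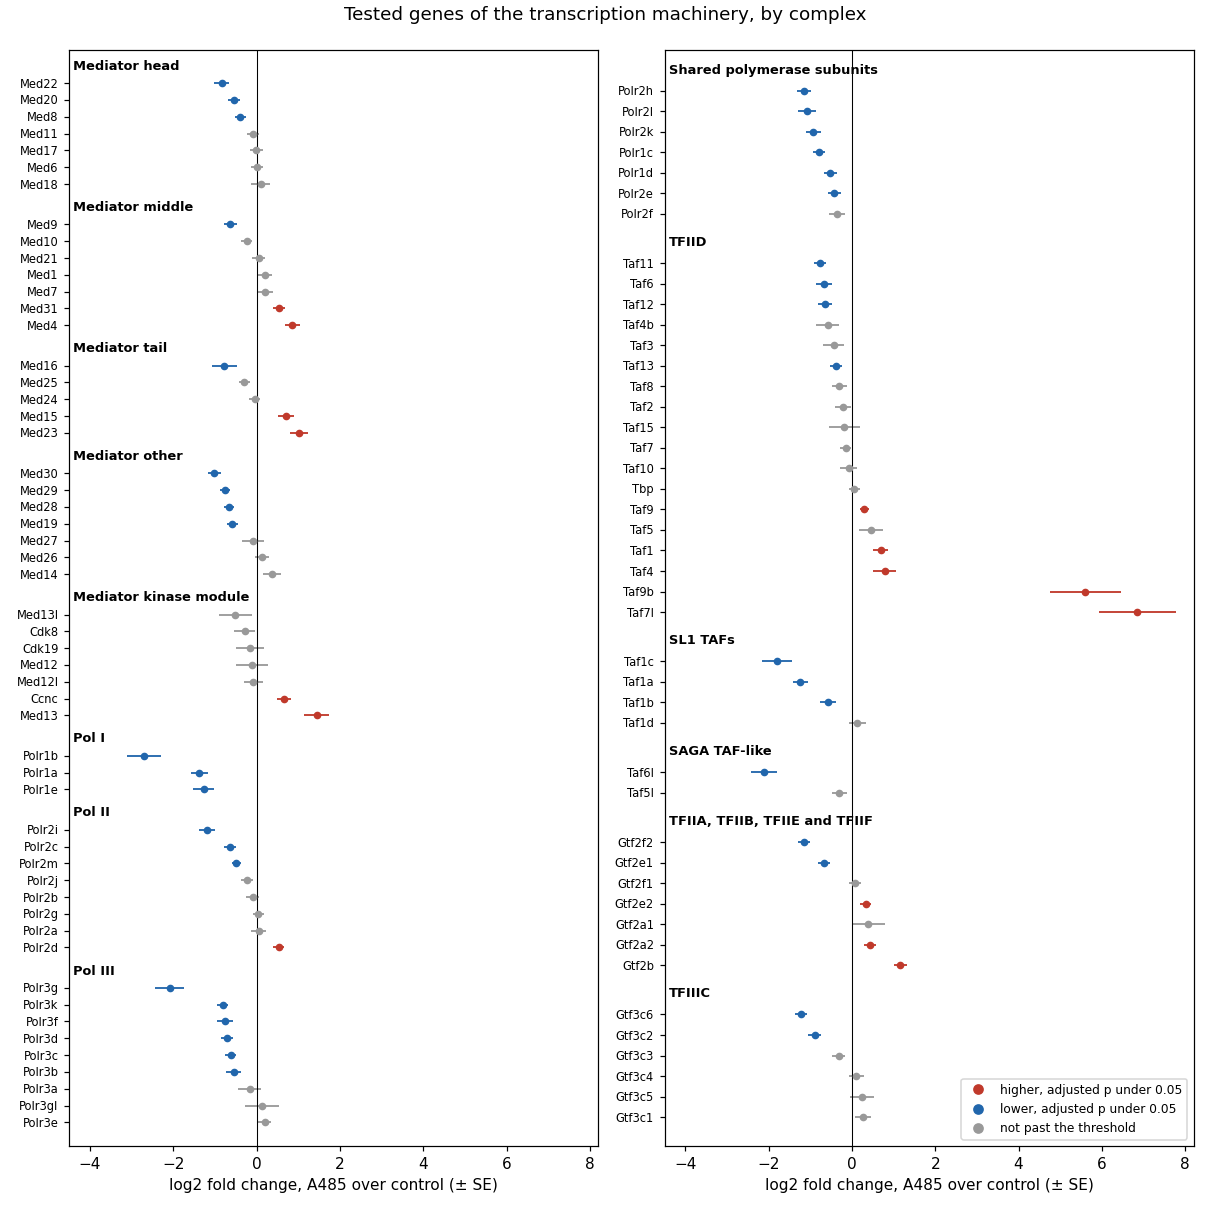
Log2 fold change of A485 over control with its standard error for the tested genes, grouped by complex, with 1 gene not drawn (x axis in log2 units, 4 libraries a group, 0 means no difference). The 3 Pol I genes lie on the lower side, and 19 of the 28 polymerase genes were called lower, while Taf7l at 6.85 and Taf9b at 5.60 stand far out on the higher side.

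The complexes differed in how many of their genes moved. All 3 Pol I genes, 6 of 7 subunits shared between polymerases, 7 of 10 Pol III genes and 3 of 4 SL1 TAFs fell, and none of these 24 genes rose. In Pol II 3 of 8 genes fell and 1 rose. Mediator had 9 falls and 6 rises among 33 genes, TFIID 4 falls and 5 rises among 18, the TFIIA, TFIIB, TFIIE and TFIIF group 2 falls and 3 rises among 7, and TFIIIC 2 falls and no rise among 6. Of the 5 TFIID rises, those of Taf7l and Taf9b are of genes that passed the filter through the A485 libraries alone. Lower and higher were 25.0% and 29.7% of all tested genes, beside 27.3% and 18.2% in Mediator and 22.2% and 27.8% in TFIID. The falls in Mediator and TFIID were thus near the share of all tested genes. The medians of log2 fold change were -1.38 for Pol I, -0.79 for the shared subunits, -0.67 for Pol III, -0.90 for SL1, -0.08 for Mediator and -0.16 for TFIID. With total-count scaling the medians of Mediator and TFIID became 0.20 and 0.12, while those of Pol I, the shared subunits, Pol III and SL1 were -1.09, -0.51, -0.38 and -0.62. The median of all tested genes moved from 0.09 to 0.37 in the same step. The shift is nearly common to all genes, so a kept or changed sign shows neither stability nor reversal. Whether one complex differs from another was not tested.

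**Figure D2:**
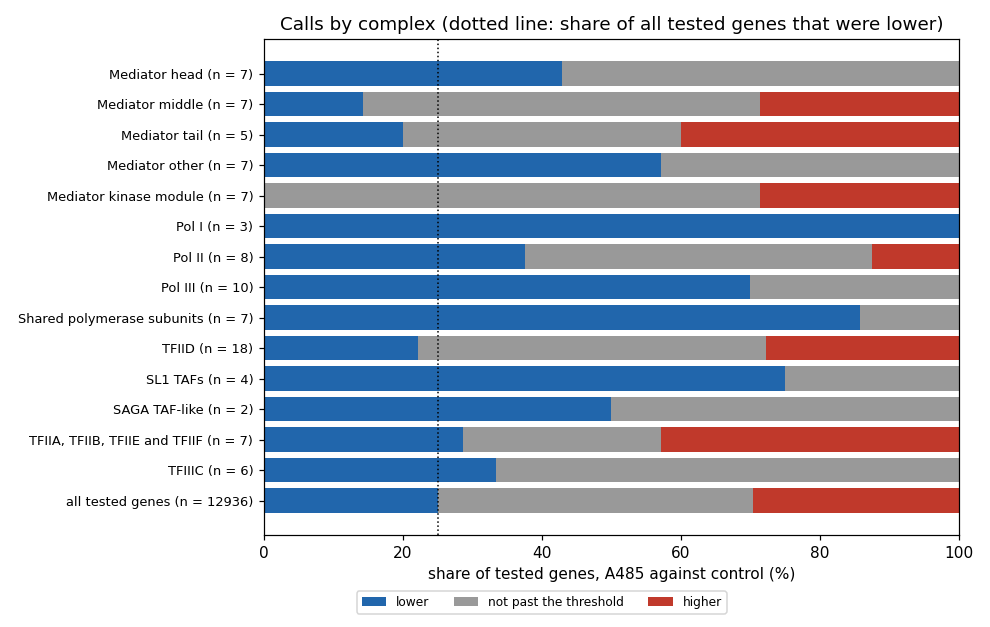
Share of the tested genes of each complex that were lower, not past the threshold or higher in A485 embryos (x axis in percent, dotted line at the 25.0% of all tested genes that were lower). Pol I has all 3 of its genes lower and the shared polymerase subunits 85.7%, against 27.3% of Mediator genes and 22.2% of TFIID genes.

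The summed CPM of the 3 Pol I genes was 42.5, 35.9, 19.9 and 20.6 in the A485 libraries, against 102.7, 107.0, 105.4 and 103.3 in the control libraries, a ratio of 0.284. Polr1b, the second largest subunit that forms the active centre together with Polr1a, had 11.9, 11.3, 2.69 and 5.06 CPM in the A485 libraries, against 50.1, 56.3, 47.1 and 47.3 CPM in the control libraries. The 4 A485 libraries lay far below the lowest control library, and A485 libraries 3 and 4 were lower than A485 libraries 1 and 2. Its log2 fold change was -2.70 ± 0.41 (SE, adjusted p = 0.000432), the deepest fall among the 98 genes. Polr1a, which carries the largest part of the catalytic centre, had 7.67, 8.85, 5.31 and 5.65 CPM in the A485 libraries, against 15.8, 18.7, 16.2 and 20.7 CPM in the control libraries. No A485 library reached the control range, and the log2 fold change was -1.38 ± 0.21 (adjusted p = 0.000427). Polr1e, a Pol I subunit of the dimer that resembles parts of TFIIF and TFIIE, had 22.9, 15.8, 11.9 and 9.87 CPM in the A485 libraries and 36.8, 32.0, 42.1 and 35.3 CPM in the control libraries. It fell by 1.28 ± 0.25 on the log2 scale (adjusted p = 0.00166), again without overlap of the groups.

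Of the TAFs of SL1, which place TBP on the promoter of the ribosomal RNA genes, 3 of 4 fell. The exception was Taf1d, which averaged 75.5 ± 25.2 CPM in A485 embryos and 68.9 ± 7.72 CPM in control embryos, with overlap (adjusted p = 0.618). Taf1c had 12.0, 9.07, 3.03 and 5.69 CPM in the A485 libraries, against 22.2, 25.8, 23.7 and 32.1 CPM in the control libraries, a log2 fold change of -1.80 ± 0.36 (adjusted p = 0.00205). Taf1a had 15.5, 16.1, 9.80 and 12.1 CPM in the A485 libraries, against 30.1, 33.3, 31.8 and 31.0 CPM in the control libraries, a log2 fold change of -1.24 ± 0.18 (adjusted p = 0.000329). For both genes every A485 library was below every control library, and A485 library 3 was the lowest. Taf1b, a TFIIB-like subunit, averaged 15.4 ± 2.69 CPM in A485 embryos and 22.7 ± 3.95 CPM in control embryos (SD, n = 4 each). Its log2 fold change of -0.57 (adjusted p = 0.0288) did not pass without A485 library 3 or control library 2 or 3 (adjusted p 0.0629 to 0.0926), nor under total-count scaling. Exons of Taf1c overlap Dnaaf1 on the other strand, and no source read here says whether the counting used strand, so its reads and those of Dnaaf1 may not be separable.

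Promoter sequences are shown for the 2 catalytic Pol I subunits, for Polr3g, the Pol III gene with the deepest fall, and for the 2 genes with the largest rises, a choice made after their values were seen. Each is the 250 bases before an annotated start, on the gene's own strand, from RefSeq on GRCm38.p6. Capitals mark matches on either strand to 5 short motifs, TATAAA (the core of the TATA box), GGGCGG (the GC box), CCAAT (the CCAAT box), CACGTG (an E-box that reads alike on both strands) and CCGGAA (the core of ETS factor sites), and matches that touch or overlap run together. Polr1a lies at chr6:71909053-71979435 and its window at chr6:71908803-71909052, plus strand, and Polr1b lies at chr2:129100970-129128060 with its window at chr2:129100746-129100995, plus strand. Polr3g lies at chr13:81673837-81711013 with its window at chr13:81711014-81711263, minus strand, Taf7l at chrX:134460116-134476505 with its window at chrX:134476491-134476740, minus strand, and Taf9b at chrX:106206874-106221158 with its upstream window at chrX:106221159-106221408, minus strand.
Polr1a: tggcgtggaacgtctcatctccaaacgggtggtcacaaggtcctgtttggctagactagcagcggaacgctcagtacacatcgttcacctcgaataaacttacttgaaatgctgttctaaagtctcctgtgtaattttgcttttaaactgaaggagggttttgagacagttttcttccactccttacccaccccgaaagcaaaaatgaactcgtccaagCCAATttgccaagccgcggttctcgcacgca
Polr1b: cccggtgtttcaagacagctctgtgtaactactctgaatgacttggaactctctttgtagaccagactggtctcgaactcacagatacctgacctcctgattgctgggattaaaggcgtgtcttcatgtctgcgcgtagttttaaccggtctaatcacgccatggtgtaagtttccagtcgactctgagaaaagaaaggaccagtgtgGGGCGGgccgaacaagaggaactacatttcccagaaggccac
Polr3g: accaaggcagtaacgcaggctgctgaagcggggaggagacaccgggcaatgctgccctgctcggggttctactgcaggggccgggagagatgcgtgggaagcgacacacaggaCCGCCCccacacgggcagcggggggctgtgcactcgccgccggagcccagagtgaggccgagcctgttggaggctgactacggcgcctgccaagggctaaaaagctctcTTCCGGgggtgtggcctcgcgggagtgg
Taf7l: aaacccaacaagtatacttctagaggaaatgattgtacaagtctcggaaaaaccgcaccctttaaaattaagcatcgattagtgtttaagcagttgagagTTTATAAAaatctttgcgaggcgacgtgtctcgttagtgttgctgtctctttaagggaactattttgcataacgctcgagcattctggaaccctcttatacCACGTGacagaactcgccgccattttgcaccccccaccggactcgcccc
Taf9b: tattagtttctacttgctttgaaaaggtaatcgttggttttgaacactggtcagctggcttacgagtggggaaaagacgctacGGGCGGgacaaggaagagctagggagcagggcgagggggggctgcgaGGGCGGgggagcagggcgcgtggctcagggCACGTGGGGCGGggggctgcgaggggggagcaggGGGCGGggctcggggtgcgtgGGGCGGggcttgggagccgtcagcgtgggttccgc

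The windows differ in what they hold. In the capitals, Polr1a has 1 CCAAT box, Polr1b has 1 GC box, and Polr3g has 1 GC box and 1 ETS core, both read on the opposite strand. Taf7l has a pair of overlapping TATA cores, 1 on each strand, and 1 E-box, and its window is 44.8% G and C. Taf9b has 5 GC boxes and 1 E-box, directly followed by 1 of those GC boxes, in a window of 66.8% G and C. A second annotated start of Taf9b has a window of 54.4% G and C, not shown, with no match to these motifs. That pair in Taf7l begins 150 bases before the start, farther out than the usual place of a TATA box.

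Windows were at hand for 85 of the 100 genes, 100 windows in all, and were set beside 13050 windows of 10273 tested genes. The ETS core was in 35.0% of the windows of the machinery genes and 21.5% of all windows. Among the machinery genes it was in 42.9% of 42 windows of genes that fell and 20.0% of 15 windows of genes that rose. The TATA core was in 13.0% of the machinery windows and 6.54% of all, and the E-box in 13.0% of the machinery windows and 8.17% of all. The GC box was in 56.0% of the machinery windows and 56.2% of all, and the CCAAT box in 33.0% of the machinery windows and 36.0% of all. Split by fall and rise in the same way, the TATA core was in 16.7% and 13.3% and the GC box in 45.2% and 53.3%. The CCAAT box was in 38.1% and 33.3% and the E-box in 11.9% and 13.3%. No such split was made over all tested genes. These are counts of letters, with no test, and a match does not show that a factor binds there. The median content of G and C was 57.0% in the machinery windows and 59.2% in all windows.

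Of the subunits shared between polymerases, Polr2e, Polr2f, Polr2h, Polr2k and Polr2l enter all of the polymerases and Polr1c and Polr1d enter Pol I and Pol III. Summed over the 7 genes, the level was 1339 to 2257 CPM in A485 libraries and 2553 to 2888 CPM in control libraries, a ratio of 0.605. Polr2h had 136, 87.0, 85.2 and 85.8 CPM in the A485 libraries, against 233, 215, 209 and 218 CPM in the control libraries. A485 library 1 stood above the other A485 libraries and still below every control library, and the log2 fold change was -1.15 ± 0.17 (adjusted p = 0.000299). Polr2l averaged 430.3 ± 147 CPM in A485 embryos and 912 ± 97.3 CPM in control embryos, and Polr2k averaged 67.6 ± 15.7 CPM in A485 embryos and 128 ± 7.62 CPM in control embryos (SD, n = 4 each). They fell by 1.08 and 0.93 on the log2 scale (adjusted p = 0.00222 and 0.00123). Polr1c, one of the pair on which Pol I and Pol III assemble, had 187, 156, 126 and 120.0 CPM in the A485 libraries, against 263, 264, 239 and 253 CPM in the control libraries (log2 fold change -0.79 ± 0.15, adjusted p = 0.00158). Its partner Polr1d fell by 0.52 on the log2 scale (adjusted p = 0.0145) with overlap, since A485 library 1 at 339.1 CPM passed control library 3. Polr2e fell by 0.42 (adjusted p = 0.0407) and lost the call without any single library other than A485 library 1 (adjusted p 0.0503 to 0.106). Under total-count scaling neither Polr1d nor Polr2e passed. Polr2f did not pass, with a log2 fold change of -0.35 (adjusted p = 0.143), and passed when A485 library 1 was left out.

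Pol III genes summed to 243.2 to 299.3 CPM in A485 libraries and 444.1 to 477.3 CPM in control libraries, a ratio of 0.584. Polr3g, a subunit known from human pluripotent cells to fall on differentiation, had 31.5, 27.0, 9.36 and 14.3 CPM in the A485 libraries, against 91.0, 103, 81.4 and 74.0 CPM in the control libraries. A485 libraries 3 and 4 were the lowest and no A485 library came near the control range, with a log2 fold change of -2.09 ± 0.34 (adjusted p = 0.000656). Polr3gl, the paralog that takes the same place in Pol III of most tissues, had 1.64, 1.02, 1.19 and 2.77 CPM in the A485 libraries and 1.63, 1.04, 1.5 and 1.86 CPM in the control libraries. The groups overlapped and the log2 fold change was 0.14 ± 0.41 (adjusted p = 0.796), negative without A485 library 4. Polr3k, a subunit for termination and reinitiation, averaged 52.8 ± 6.58 CPM in A485 embryos and 93.0 ± 5.12 CPM in control embryos (log2 fold change -0.82 ± 0.13, adjusted p = 0.000582). Polr3d, of the dimer that resembles TFIIF, averaged 21.2 ± 2.13 CPM in A485 embryos and 34.6 ± 3.34 CPM in control embryos (log2 fold change -0.71 ± 0.14, adjusted p = 0.00213). Polr3f fell by 0.77 on the log2 scale, Polr3c by 0.62 and Polr3b, the second largest subunit, by 0.56. Polr3b lost its call without A485 library 2 or 3 or control library 4 (adjusted p 0.0593 to 0.0701). The largest subunit, Polr3a, had 12.6, 10.3, 4.83 and 7.43 CPM in the A485 libraries and 9.12, 11.6, 9.71 and 9.14 CPM in the control libraries, which overlapped, and its log2 fold change of -0.17 ± 0.28 did not pass (adjusted p = 0.632). With total-count scaling 4 Pol III genes fell and 1, Polr3e, rose, since Polr3b, Polr3c and Polr3f no longer passed.

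TFIIIC binds the internal promoter of transfer RNA genes and recruits TFIIIB and Pol III. Gtf3c6, its smallest subunit, had 54.6, 36.5, 43.3 and 44.4 CPM in the A485 libraries, against 107, 90.3, 107 and 114 CPM in the control libraries. The groups did not overlap, and the log2 fold change was -1.23 ± 0.15 (adjusted p = 0.00013). Gtf3c2 had 15.6, 14.1, 13.0 and 12.7 CPM in the A485 libraries, against 23.3, 25.4, 23.0 and 31.2 CPM in the control libraries (log2 fold change -0.89 ± 0.16, adjusted p = 0.00104). Exons of Gtf3c2 share 2556 bases with Gm29609 on the same strand. Gm29609 is not among the deposited genes, so whether the 2 genes shared reads could not be checked. The other 4 subunits did not pass, although the A485 libraries lay below all control libraries for Gtf3c3 too. Without A485 library 3, Gtf3c5 passed as higher, and with total-count scaling Gtf3c1 did. The median of the 6 genes was -0.11 and became 0.17 with total-count scaling, where that of all tested genes moved from 0.09 to 0.37.

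**Figure D3:**
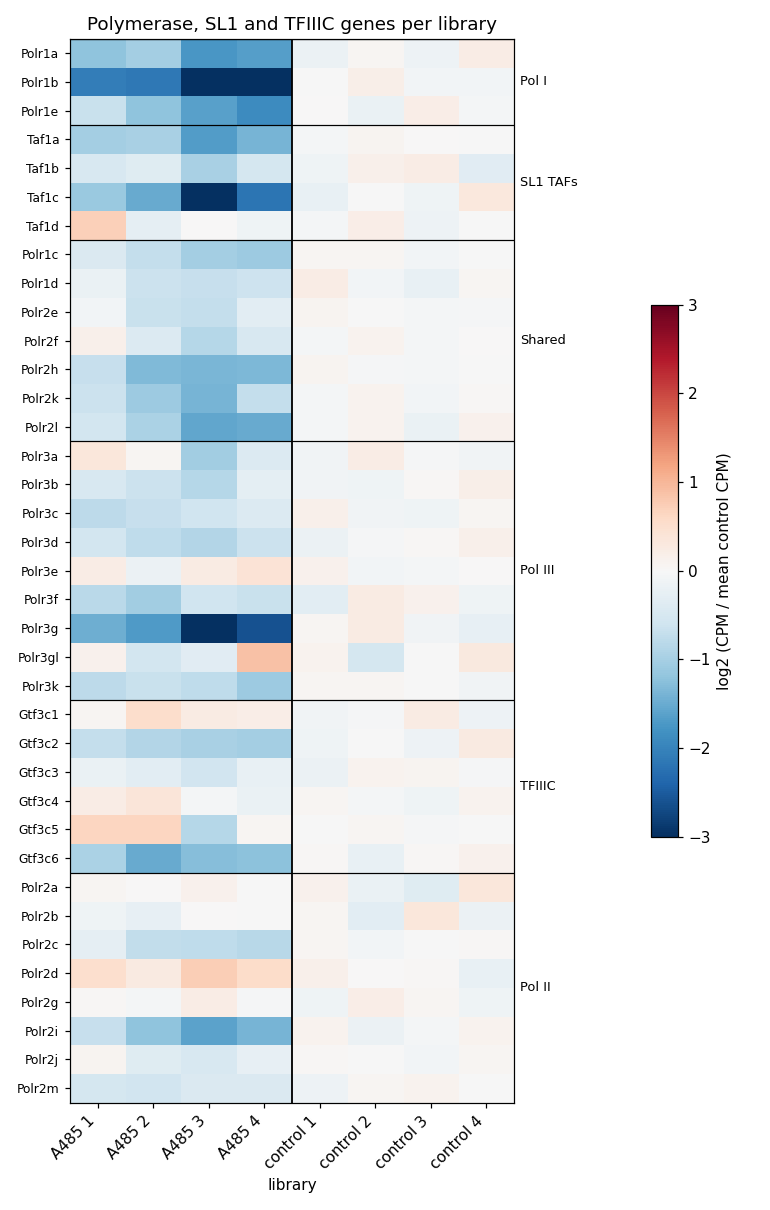
Log2 of each library's CPM over the mean control CPM for the polymerase, SL1 and TFIIIC genes except 1 that is not drawn (rows) in the 4 A485 and 4 control libraries (columns), with the colour limited to the range -3 to 3. Polr1b, Taf1c and Polr3g are darkest in A485 libraries 3 and 4, where their levels were 2.69 and 5.06, 3.03 and 5.69, and 9.36 and 14.3 CPM.

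The A485 libraries differed in how often they held the extreme value. Among the 40 genes that fell, the lowest of the 8 libraries was A485 library 3 for 20 genes, library 4 for 11, library 2 for 7 and library 1 for 2. Among the 15 that rose, the highest was A485 library 3 for 9 genes, library 4 for 4, library 2 for 2 and library 1 for none. The genes did not share one order, since Med19 and Polr3c were lowest in A485 library 1 and Med20, Med28, Med8 and Gtf3c6 in A485 library 2. No control library held the extreme for any of these 55 genes, which largely follows from how they were called. The same count over all called genes was not made, so these orders cannot be read as particular to the machinery genes.

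Among the Pol II genes 3 of 8 fell and 1 rose, and the gene of the catalytic centre did not pass. That is 37.5% lower and 12.5% higher, beside 25.0% and 29.7% of all tested genes. Polr2a, the largest subunit with the repeat-bearing tail, had 28.9, 28.1, 30.2 and 27.3 CPM in the A485 libraries and 30.4, 24.0, 21.5 and 34.9 CPM in the control libraries. The A485 values lay within the control range, and the log2 fold change of 0.05 ± 0.17 did not pass (adjusted p = 0.839). Polr2i, known in yeast for start site choice and proofreading, had 69.4, 48.7, 37.2 and 43.1 CPM in the A485 libraries, against 121, 100.5, 108 and 122 CPM in the control libraries, without overlap (log2 fold change -1.19 ± 0.19, adjusted p = 0.000568). Polr2c, an assembly subunit, averaged 202 ± 39.1 CPM in A485 embryos and 314 ± 14.5 CPM in control embryos and fell by 0.64 on the log2 scale (adjusted p = 0.00386). Polr2m, a negative regulator that competes with TFIIF for Pol II, averaged 139.9 ± 7.15 CPM in A485 embryos and 196 ± 14.8 CPM in control embryos and fell by 0.49 (adjusted p = 0.00407), a call lost under total-count scaling. Polr2d, of the stalk that in yeast can leave the enzyme, was the polymerase gene that rose, with 120.2, 101, 140.3 and 123 CPM in the A485 libraries and 93.8, 85.2, 85.6 and 71.9 CPM in the control libraries (log2 fold change 0.53 ± 0.14, adjusted p = 0.0092). Exons of Polr2i overlap Tbcb and those of Polr2c overlap Dok4 on the other strand.

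TBP, the factor shared by all of the polymerases, had 34.0, 36.9, 35.6 and 42.4 CPM in the A485 libraries and 38.8, 36.5, 36.8 and 31.3 CPM in the control libraries. The groups overlapped and the log2 fold change was 0.05 ± 0.14 (adjusted p = 0.756). Exons of Tbp overlap Pdcd2 by 2277 bases on the other strand. Taf1, the largest TFIID subunit, had 9.52, 11.7, 9.53 and 9.39 CPM in the A485 libraries, against 6.61, 6.50, 5.67 and 6.17 CPM in the control libraries. Every A485 library was above every control library, with a log2 fold change of 0.68 ± 0.18 (adjusted p = 0.00796). Taf11, which pairs with Taf13 beside TBP, had 46.3, 34.8, 33.6 and 36.7 CPM in the A485 libraries, against 62.3, 66.9, 64.3 and 64.4 CPM in the control libraries (log2 fold change -0.77 ± 0.14, adjusted p = 0.00107). The histone-fold TAFs Taf6 and Taf12 fell by 0.67 and 0.64 on the log2 scale, and Taf13 by 0.39. Taf13 lost the call without A485 library 2 or 4 or control library 1, 2 or 3 (adjusted p 0.0614 to 0.125), and with total-count scaling Taf11 was the only TFIID gene that fell.

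The largest rises belonged to 2 X-linked TAF paralogs that were near 0 CPM in control embryos. Taf7l, the paralog of Taf7 known from male germ cells and fat cells, had 5.05, 13.3, 36.9 and 7.61 CPM in the A485 libraries, against 0.132, 0.0451, 0.333 and 0 CPM in the control libraries. A485 library 3 was highest, and even the lowest A485 library was far above all control libraries. Summed counts were 1777 in A485 libraries and 12 in control libraries, a ratio of 123.8 with a 95% counting interval of 70.7 to 240.0. The fitted log2 fold change was 6.85 ± 0.92 (adjusted p = 0.000271), and it was 5.99 without A485 library 3 and 7.86 without control library 3. Taf9b, the paralog of Taf9, had 0.985, 2.41, 4.42 and 1.74 CPM in the A485 libraries, against 0.132, 0.0451, 0 and 0 CPM in the control libraries. With 267 counts in A485 libraries and 4 in control libraries, the ratio was 55.8 (95% counting interval 21.5 to 206.3). Its fitted log2 fold change was 5.60 ± 0.86 (adjusted p = 0.000416), and 6.91 without control library 1, where 3 of the 4 control counts stood. These intervals are exact binomial ones and cover counting error only, and preamplified copies of 1 molecule cannot be told from separate molecules. Both genes passed the filter on low counts through the A485 libraries alone, so their adjusted p-values support nothing.

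Taf4, a TFIID subunit that activators contact, had 3.20, 4.61, 3.64 and 2.66 CPM in the A485 libraries and 1.76, 2.03, 2.17 and 2.23 CPM in the control libraries. It rose by 0.78 ± 0.28 on the log2 scale (adjusted p = 0.0338) without overlap of the groups, at under 5 CPM throughout. Taf9 had 249.6, 247, 285 and 274 CPM in the A485 libraries and 238, 195, 219.8 and 204 CPM in the control libraries, a log2 fold change of 0.30 (adjusted p = 0.0489). Its exons share 1119 bases with Ak6 on the same strand, so its reads are uncertain. Taf9 lost its call without any library other than A485 library 1 (adjusted p 0.0554 to 0.145), and Taf4 without A485 library 2 or 3 or any control library (adjusted p 0.0574 to 0.103). Without A485 library 2 or 3 or any single control library, TFIID thus had 3 rises in place of 5, those of Taf1, Taf7l and Taf9b. Apart from Taf1, Taf7l and Taf9b, the X-linked genes were Med12 and Med14, which did not pass. The 4 Y-linked genes looked at summed to 16.3 to 53.4 CPM in A485 libraries and 22.6 to 38.4 CPM in control libraries. The part of embryo sex in these values was not tested.

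Paralogs that fill the same place in a complex were compared by the log2 ratio of their CPM in each library, in 9 pairs. The test was an exact permutation of the group labels, two-sided, whose 70 arrangements allow no p below 0.0286, and 6 pairs reached it, which became 0.0429 after adjustment over the 9. For 2 of the 6, Taf7 with Taf7l and Taf9 with Taf9b, the control counts of the second gene are so few that the control ratio is set by the prior count of 2. Taf7l and Taf9b passed the filter through the A485 libraries alone, so their test supports nothing. No size is given here for these 2 pairs. The adjusted value of 0.0429 counts them among the 6, so it does not place the other 4 pairs past the threshold. The level of Taf7 itself was 124, 120.4, 162 and 121 CPM in the A485 libraries and 154, 151, 139.7 and 138 CPM in the control libraries, which overlapped (adjusted p = 0.374). Between A485 and control libraries the log2 ratio differed by -2.29 for Polr3g to Polr3gl, by 1.88 for Med13 to Med13l, by 1.57 for Taf6 to Taf6l and by 1.34 for Taf4 to Taf4b (exact permutation p = 0.0286 for each). In each of these 4 pairs all 4 A485 ratios lay on one side of all 4 control ratios.

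In Taf6 and Taf6l both genes fell, by 0.67 and 2.11 on the log2 scale, and exons of Taf6 overlap Ap4m1 by 903 bases on the other strand. Taf6l takes the place of Taf6 in the SAGA coactivator and had 8.99, 5.05, 2.93 and 4.32 CPM in the A485 libraries, against 21.1, 24.1, 24.0 and 23.0 CPM in the control libraries (adjusted p = 0.00029). Taf5l, its SAGA partner, had 14.4, 11.5, 8.91 and 13.2 CPM in the A485 libraries and 16.1, 13.9, 13.9 and 15.4 CPM in the control libraries and did not pass (adjusted p = 0.19), and the ratio of Taf5 to Taf5l differed by 0.75 (exact permutation p = 0.0857, adjusted 0.11). Taf4b averaged 3.38 ± 1.12 CPM in A485 embryos and 5.07 ± 0.988 CPM in control embryos (adjusted p = 0.105), and passed as lower when A485 library 1 was left out (adjusted p = 0.0187). For Med12 to Med12l the difference was 0.04 and for Cdk8 to Cdk19 -0.14 (exact permutation p = 0.943 and 0.971), each with A485 and control ratios that overlapped.

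**Figure D4:**
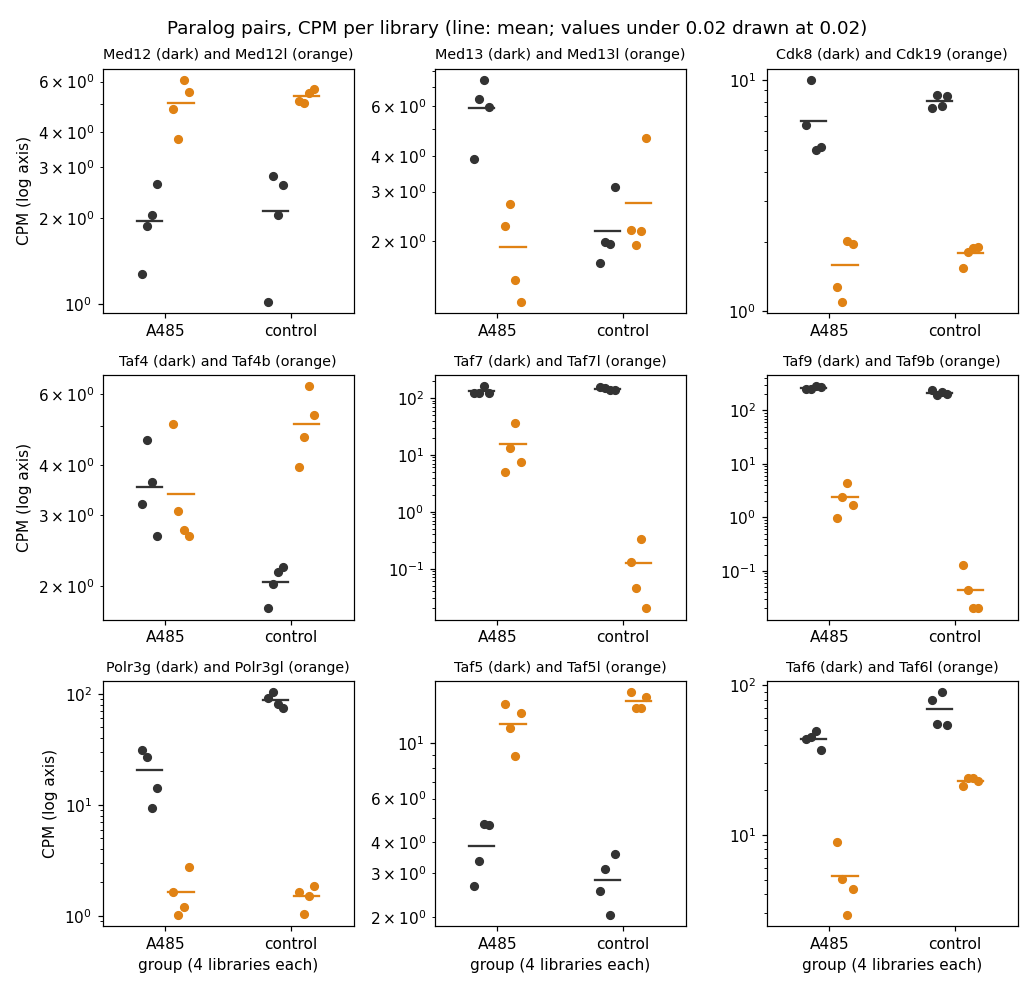
CPM per library on log axes for the 9 paralog pairs, A485 libraries on the left and control libraries on the right of each panel, with a line at the mean and values under 0.02 CPM drawn at 0.02. Taf7l and Taf9b lie at 5.05 CPM or above and 0.985 CPM or above in A485 libraries and at 0.333 CPM or below and 0.132 CPM or below in control libraries, while Polr3g is lower in A485 libraries and Polr3gl overlaps between the groups.

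In the head of Mediator, which holds the polymerase, 3 of 7 genes fell and none rose. That is 42.9% lower and none higher, beside 25.0% and 29.7% of all tested genes. Med22 had 20.3, 19.8, 18.5 and 14.6 CPM in the A485 libraries, against 29.9, 40.5, 27.9 and 33.0 CPM in the control libraries, without overlap (log2 fold change -0.84 ± 0.17, adjusted p = 0.00225). Med20 and Med8, which sit together in the movable part of the head, averaged 53.4 ± 4.02 and 135 ± 18.6 CPM in A485 embryos and 77.6 ± 11.5 and 177 ± 15.2 CPM in control embryos (SD, n = 4 each). They fell by 0.54 and 0.39 on the log2 scale (adjusted p = 0.00874 and 0.0273), and neither passed under total-count scaling, where Med22 was the head gene left. Med8 also lost the call without A485 library 2 or 3 or control library 2 (adjusted p 0.0571 to 0.0844).

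The subunits that this grouping places outside head, middle and tail had the most falls within Mediator, 4 of 7. That is 57.1% lower, beside 25.0% of all tested genes. The summed level of these 7 genes was 485.1 to 590.9 CPM in A485 libraries and 762.8 to 826.6 CPM in control libraries, a ratio of 0.667. Med30, a subunit of animal Mediator, had 23.1, 18.1, 17.1 and 22.2 CPM in the A485 libraries, against 44.8, 37.8, 39.2 and 40.8 CPM in the control libraries. It fell by 1.01 ± 0.15 on the log2 scale (adjusted p = 0.000356), with all A485 libraries below all control libraries. Med29 had 128, 118, 115 and 104 CPM in the A485 libraries and 211, 197, 185 and 196 CPM in the control libraries. Med28 had 229, 176, 186 and 204 CPM in the A485 libraries and 313, 325, 298 and 334 CPM in the control libraries. In both genes the groups did not overlap, and they fell by 0.76 and 0.68 (adjusted p = 0.000381 and 0.00101). Med19 fell by 0.59 (adjusted p = 0.00367) and was not past the threshold under total-count scaling. Exons of Med19 overlap Zdhhc5 by 246 bases on the other strand. Med14, the scaffold that joins the modules, had 7.59, 11.4, 7.42 and 6.87 CPM in the A485 libraries and 6.91, 5.51, 6.33 and 7.0 CPM in the control libraries, did not pass (log2 fold change 0.37, adjusted p = 0.179), and passed as higher under total-count scaling.

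The middle and the tail moved both ways. In the middle 14.3% of the genes fell and 28.6% rose, and in the tail 20.0% and 40.0%. Of all tested genes 25.0% fell and 29.7% rose. Med4, a core subunit of the middle, had 163, 191, 266 and 282 CPM in the A485 libraries, against 139.8, 121, 119 and 120.5 CPM in the control libraries. A485 libraries 3 and 4 were highest and the groups did not overlap (log2 fold change 0.85 ± 0.18, adjusted p = 0.00264). Med31, also of the middle, had 67.7, 49.8, 73.9 and 69.8 CPM in the A485 libraries and 50.7, 46.4, 41.2 and 42.0 CPM in the control libraries, overlapped, and lost its call without control library 3 or 4 (adjusted p 0.0587 and 0.0501), which left Med4 as the middle gene that rose. Med9 averaged 77.2 ± 16.9 CPM in A485 embryos and 120.2 ± 5.12 CPM in control embryos and fell by 0.64 (adjusted p = 0.00659). Med1, the subunit that nuclear receptors bind, did not pass (log2 fold change 0.19, adjusted p = 0.402). In the tail, the landing place of many activators, Med23 had 8.0, 6.62, 7.52 and 8.91 CPM in the A485 libraries, against 4.89, 3.43, 3.46 and 3.53 CPM in the control libraries (log2 fold change 1.02 ± 0.22, adjusted p = 0.00282). Med15 averaged 22.3 ± 4.49 CPM in A485 embryos and 13.7 ± 2.62 CPM in control embryos and rose by 0.70 ± 0.20 (adjusted p = 0.0128). Med16 had 117, 89.3, 52.5 and 50.7 CPM in the A485 libraries and 98.6, 188, 109 and 135 CPM in the control libraries, which overlapped. It fell by 0.78 (adjusted p = 0.0469), a call lost under total-count scaling and without A485 library 2, 3 or 4 or control library 2, 3 or 4 (adjusted p 0.0552 to 0.182), which left no fall in the tail.

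The kinase module, which binds Mediator reversibly and phosphorylates transcription factors, had 2 rises and no fall among 7 genes, 28.6% higher beside 29.7% of all tested genes. The median log2 fold change of its genes was -0.11. Its summed level was 57.5, 64.1, 80.0 and 67.1 CPM in the A485 libraries, against 48.8, 49.9, 50.3 and 51.9 CPM in the control libraries, a ratio of 1.34 that rests mostly on Ccnc, the gene with the highest CPM of the module. Med13, which links the module to Mediator, had 3.90, 6.37, 7.45 and 5.95 CPM in the A485 libraries, against 1.67, 1.99, 1.96 and 3.11 CPM in the control libraries. The groups did not overlap, and the log2 fold change was 1.44 ± 0.30 (adjusted p = 0.00237). Ccnc, cyclin C, which activates the kinase, had 37.5, 38.3, 55.9 and 44.7 CPM in the A485 libraries, against 29.6, 27.7, 29.0 and 25.5 CPM in the control libraries (log2 fold change 0.66 ± 0.16, adjusted p = 0.00575). Exons of Ccnc overlap Tstd3 by 276 bases on the other strand. The kinase Cdk8 had 6.40, 10.02, 5.0 and 5.14 CPM in the A485 libraries and 7.57, 8.62, 7.75 and 8.49 CPM in the control libraries, and its paralog Cdk19 averaged 1.58 ± 0.467 CPM in A485 embryos and 1.78 ± 0.165 CPM in control embryos. Med12, which stimulates the kinase, had 1.27, 1.87, 2.04 and 2.62 CPM in the A485 libraries and 1.01, 2.80, 2.04 and 2.60 CPM in the control libraries. Cdk8, Cdk19, Med12, Med12l and Med13l did not pass (adjusted p = 0.352, 0.696, 0.824, 0.787 and 0.296). Their standard errors were 0.22 to 0.40 on the log2 scale, so equal levels are not shown.

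The initiation factors that join TFIID moved in both directions. Of their tested genes 28.6% fell and 42.9% rose, beside 25.0% and 29.7% of all tested genes. Gtf2b, which is TFIIB, had 181, 202, 288 and 202 CPM in the A485 libraries, against 101, 100.5, 85.8 and 103 CPM in the control libraries. Every A485 library was above every control library, with a log2 fold change of 1.16 ± 0.16 (adjusted p = 0.000224). Gtf2f2, the smaller subunit of TFIIF, had 75.2, 53.5, 51.4 and 66.6 CPM in the A485 libraries, against 137, 123, 146 and 144 CPM in the control libraries, a fall without overlap (log2 fold change -1.16 ± 0.15, adjusted p = 0.000171). The 2 subunits of TFIIE went opposite ways. Gtf2e1 averaged 18.4 ± 1.56 CPM in A485 embryos and 29.3 ± 2.78 CPM in control embryos and fell by 0.67 (adjusted p = 0.00291), while Gtf2e2 averaged 120.0 ± 12.3 CPM in A485 embryos and 95.5 ± 9.27 CPM in control embryos and rose by 0.33 (adjusted p = 0.0485). Gtf2e1 did not pass under total-count scaling, and Gtf2e2 lost the call without any single library other than A485 library 1 (adjusted p 0.0535 to 0.151). Gtf2a2, the small subunit of TFIIA, rose by 0.43 (adjusted p = 0.0244) with overlap and lost the call without A485 library 3 or 4 or control library 3 or 4 (adjusted p 0.0544 to 0.0842), and without any 1 of those libraries Gtf2b was the factor of this group that rose.

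Levels per length (TPM) order the genes within control embryos. Polr2e at 703 ± 28.1 TPM and Polr2j at 698.5 ± 17.5 TPM were the highest of the shared and the Pol II subunits, and their neighbouring means lie within each other's SD. The largest subunit Polr2a was at 3.94 ± 0.798 TPM, Polr1a at 2.89 ± 0.333 and Polr3a at 2.25 ± 0.379. In Mediator the levels ran to 481.4 ± 44.9 TPM for Med10, and in the kinase module Ccnc was at 18.7 ± 1.57 TPM and Med13 at 0.200 ± 0.056 TPM (SD, n = 4). Of the 98 genes, 19 were above 100 TPM and 14 below 1 TPM. The median transcript length was 2266 bases for the genes that fell, 1962 for those that rose and 3410 for those not past the threshold, beside 2520, 3065 and 3182 bases for the same classes of all tested genes. Across the 98 genes, Spearman's rho of length and log2 fold change was 0.12, a description over genes that share their libraries.

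Other genes of the same machinery were looked up in lists that the symbol rule does not cover, 58 tested genes in all. Of these 20 fell and 11 rose, which is 34.5% and 19.0%, beside 25.0% and 29.7% of all tested genes. With total-count scaling 14 fell and 17 rose, beside 17.8% and 38.1% of all tested genes. In the list of Pol I, Pol III and mitochondrial initiation factors 4 of 16 fell, the same 25.0% as among all tested genes, and 3 rose, in that of TBP partners 1 of 4 fell and 1 rose, in that of Pol II elongation 9 of 24 fell and 4 rose, and in SAGA other than TAFs 6 of 14 fell and 3 rose, with 3 falls under total-count scaling. Snapc5, of the complex that starts small nuclear RNA genes, had 72.1, 59.4, 31.5 and 31.8 CPM in the A485 libraries, against 233, 208, 218 and 225 CPM in the control libraries. It fell by 2.18 ± 0.27 on the log2 scale (adjusted p = 0.00013). Other genes of that complex, named after their values were seen, did not fall with it. Snapc1 rose by 1.08 (adjusted p = 0.00232) and Snapc3 by 1.75 with overlap of the groups (adjusted p = 0.0369), while Snapc2 and Snapc4 did not pass. Polrmt, the mitochondrial RNA polymerase, and Tfb1m, a methyltransferase of mitochondrial ribosomal RNA, fell as well, with log2 fold changes of -1.39 and -1.31 (adjusted p = 0.000569 and 0.000738). The mitochondrial genes Tfam and Tfb2m of the same list did not pass (adjusted p = 0.898 and 0.112).

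Among elongation factors Tcea2, a TFIIS gene known from testis, averaged 5.0 ± 1.99 CPM in A485 embryos and 0.188 ± 0.161 CPM in control embryos, a log2 fold change of 4.70 (adjusted p = 0.000122) that was 5.38 without control library 2. Tcea2 passed the filter on low counts through the A485 libraries alone, so its adjusted p and its place among the rises support nothing. The related gene Tcea3 averaged 4.70 ± 1.51 CPM in A485 embryos and 15.6 ± 2.37 CPM in control embryos and fell by 1.73 (adjusted p = 0.000432), and Nelfe, of the pausing complex NELF, fell by 0.97 (adjusted p = 0.00037). In SAGA, Supt20 had 13.9, 18.6, 15.2 and 17.0 CPM in the A485 libraries, against 52.5, 49.0, 49.5 and 45.4 CPM in the control libraries (log2 fold change -1.60, adjusted p = 2.55e-05). Trrap, the large activator-binding subunit that SAGA shares with another acetyltransferase complex, had 19.7, 21.7, 25.8 and 28.6 CPM in the A485 libraries, against 7.13, 5.01, 4.58 and 7.56 CPM in the control libraries (log2 fold change 1.98, adjusted p = 7.27e-05). Kat2a, an acetyltransferase of SAGA, fell by 1.12 (adjusted p = 0.0034). Kat2b, the acetyltransferase that can take its place, was chosen after its values were seen and averaged 2.68 ± 0.851 CPM in A485 embryos and 0.641 ± 0.366 CPM in control embryos (log2 fold change 2.06 ± 0.46, adjusted p = 0.00358). Among partners of TBP, Tbpl1, the TBP-like factor, fell by 1.12 (adjusted p = 0.00119), Drap1, a repressor subunit that binds TBP, rose by 1.13 (adjusted p = 0.0024), and Btaf1, which removes TBP from DNA, did not pass (log2 fold change 0.35, adjusted p = 0.239) but did as higher under total-count scaling.

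Of the 98 genes, 53 had a q-value under 0.05 in the authors' deposited table. All 53 were among the 55 genes called here, and with the same direction.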

How the data were processed

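Gene expression was measured in 8 libraries, 4 with A485 and 4 with DMSO. The authors deposited 1 table of estimated counts, FPKM, TPM and normalized counts per gene and library, per the file headers. The authors also deposited a log2 fold change with its DESeq2 q-value and p-value per gene, per the file headers. Tools listed in the submitters' processing notes are DESeq2 1.40.2, RSEM 1.2.28 and HISAT2 2.2.1, with the build GRCm38.p6, and neither their roles nor strandedness could be read from any source used here. The estimated counts (18.2% not whole) were rounded, and 20 of 18257 genes had none left. TPM served only to order genes, and FPKM and normalized counts were not used.

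The main test was a robust quasi-likelihood fit on group alone in edgeR 4.0.16 (R 4.3.3), after filterByExpr and TMM scaling. P-values were adjusted by Benjamini-Hochberg over the 12936 genes that passed, and 0.05 was the threshold. Standard errors are log2 fold changes over the root of the F statistic. CPM used TMM-scaled totals, and log2 CPM a prior count of 2. Members and lists were chosen with earlier results of these data known, so their counts are descriptions. The naming rule gives values for the 3 genes of smallest p past the threshold in each complex, for both genes of each pair tested, and for Polr2a, Polr1a, Polr3a, Tbp, Taf1, Med1, Med14, Med12, Cdk8 and Ccnc. It adds the 3 of smallest p in each further list, and other members may be named with their fold change. 1 member is counted but its own values are not reported here. The mammalian complexes were assigned by hand from general knowledge of subunits.

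Counting intervals are exact binomial at 95%. Exon overlaps of at least 50 bases came from the GENCODE annotation, promoters and gene coordinates from RefSeq tables, both on GRCm38. Alternatives were DESeq2 1.42.0, limma-voom (limma 3.58.1), RLE, upper-quartile and total-count scaling, leaving out the filter, requiring 5 CPM in 4 libraries, a replicate block, and each library left out. The edgeR step was tested on simulated data. With 4 pools a group and these totals, precision is lowest for genes of a few CPM.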

Additional observations from a re-analysis of the deposited data

Results flagged for a closer look

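In 17 of 238 groups of 4 libraries looked at, 1 library lay far from the other 3: by Dixon's test at the 95% level its gap to the nearest of them was too large a share of the group's range. Chance gives this in about 1 in 20 groups.

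Among A485 libraries, library 1 was the high one for Polr2h at 135.6 CPM (the others 85.2 to 87.0), Polr2c at 260.6 CPM (176.9 to 187.8), Polr1d at 339.1 CPM (241.3 to 252.6) and Taf10 at 20.2 CPM (13.1 to 14.2). Library 2 was the high one for Med14 at 11.4 CPM (6.87 to 7.59), Taf1 at 11.7 CPM (9.39 to 9.53) and Polrmt at 8.52 CPM (5.29 to 5.79). Library 3 was high for Taf7 at 162.1 CPM (120.4 to 123.6) and library 4 for Gtf2e2 at 138.4 CPM (112.5 to 115.2).

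Among control libraries, library 1 was the high one for Med4 at 139.8 CPM (119.3 to 120.8), Med7 at 93.5 CPM (81.8 to 83.4) and Med23 at 4.89 CPM (3.43 to 3.53). Library 2 was high for Med8 at 199.7 CPM (167.9 to 170.3) and low for Taf2 at 4.97 CPM (5.50 to 5.58). Library 3 was high for Nelfe at 131.3 CPM (111.7 to 113.5) and low for Gtf2b at 85.8 CPM (100.5 to 102.6), and library 4 was high for Med13l at 4.64 CPM (1.94 to 2.2).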

How the results depend on the processing

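DESeq2 and limma-voom each called the same 55 genes of the machinery in the same direction. RLE size factors called 53 of them (not Gtf2e2 and Taf9), upper-quartile factors 50 (not Med16, Med8, Polr2e, Taf13 and Taf1b) and no filter 50 (not Gtf2a2, Gtf2e2, Med16, Taf4 and Taf9). The filter of 5 CPM called 46 of them, and Med13, Taf4 and Taf9b were among the 9 others. Total-count scaling called 43, of which 40 were among the 55, with 25 lower in place of 40, and 17 further machinery genes higher in place of 11. The filter of 5 CPM tested 8194 genes and called 2526 of all genes higher in place of 3839. With 1 library left out, 10 to 15 machinery genes were higher and 35 to 43 lower, and 3509 to 4165 of all genes higher and 2784 to 3520 lower.

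Same-numbered A485 and control libraries deviated together with correlations of 0.005, 0.014, 0.104 and 0.067, and A485 library 1 correlated best with control library 2 and A485 library 2 with control library 1. A485 libraries 1 and 2 had 0.005 to 0.143 with control libraries 1 and 2, and -0.101 to -0.067 with control libraries 3 and 4. A485 libraries 3 and 4 had 0.064 to 0.104 with control libraries 3 and 4, and -0.127 to -0.019 with control libraries 1 and 2. Whether libraries 1 and 2 and libraries 3 and 4 form separate groups, and whether the libraries are independent, was not tested. With the replicate block 48 machinery genes were called, all among the 55, 37 of them lower, and Gtf2a2, Gtf2e2, Med8, Taf13, Taf1b, Taf4 and Taf9 lost the call.

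With 1 library left out, the exact permutation test on paralog ratios cannot pass the threshold, so only sizes are given, as lowest to highest: Med13 to Med13l 1.66 to 2.17, Taf4 to Taf4b 1.18 to 1.58, Taf6 to Taf6l 1.27 to 1.86 and Polr3g to Polr3gl -2.66 to -1.90. Taf7 to Taf7l gave -6.71 to -5.78 and Taf9 to Taf9b -4.25 to -3.59, values held by the prior count of 2 on the control side, which say nothing about stability. Taf5 to Taf5l gave 0.51 to 1.01, and the ratios near 0 changed sign, Med12 to Med12l between -0.25 and 0.22 and Cdk8 to Cdk19 between -0.51 and 0.10.

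Some log2 fold changes that never passed the threshold changed sign, and the cause was not tested. Under total-count scaling Med12 was 0.186, Med12l 0.214, Cdk8 0.002, Cdk19 0.128, Taf7 0.154 and Polr3a 0.096. Med12l was 0.016 with upper-quartile factors and 0.049 with the filter of 5 CPM, and with no filter Polr2a was -0.01 and Tbp -0.005. With 1 library left out the values ran between -0.361 and 0.067 for Med12, -0.181 and 0.038 for Med12l, -0.229 and 0.309 for Polr3gl, -0.101 and 0.16 for Polr2a, -0.399 and 0.035 for Polr3a, and -0.022 and 0.087 for Tbp.

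Depth limits the low genes: 14 of the 98 were below 1 TPM in control embryos, and Taf7l and Taf9b rest on 12 and 4 counts there.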
